A study of Mus musculus with 18 samples.

Results

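The genes described are 10 feedback inhibitors and targets of the ERK mitogen-activated protein kinase: the dual-specificity phosphatases Dusp1, Dusp4, Dusp5 and Dusp6, the Sprouty genes Spry1, Spry2 and Spry4, the related Spred1, and the ETS transcription factors Etv4 and Etv5. They were taken by symbol from a table of 24116 genes, in which all 10 were found, and the rule that picks them uses no measured value. They were read in 18 messenger RNA libraries of mouse intestinal organoids, cultured structures of intestinal epithelium, with 3 libraries at each of days 0, 1, 2, 3, 4 and 5. All libraries came from C57BL/6 wild-type mice aged 8 weeks, and each pooled 30 wells. Organoids were maintained in IntestiCult medium. From day 0 they received ENR medium, which holds EGF and Noggin at 100 ng/ml each and R-spondin at 500 ng/ml. Until day 1 this was joined by 20% Wnt3a-conditioned medium, the ROCK inhibitor Y-27632 at 10 µM and the GSK3 inhibitor CHIR99021 at 3 µM, and from day 1 to day 3 by the first 2 of these alone. ENR alone was given from day 3 to day 5. Every medium stage from day 0 on thus held EGF, and the medium changed together with the day. The series names 3 organoid lines, and the titles name mouse 1, 2 or 3, with mouse 1 for replicate 2 of days 1 and 2. Replicate 1 of each day was made without DNase treatment.

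EGF and FGF receptors activate RAS, which activates RAF, MEK and ERK in turn. ERK then raises transcription of its own inhibitors, so that transcripts of these feedback genes are widely read as a record of recent ERK activity. The phosphatases remove phosphate from MAP kinases themselves, Sprouty and Spred proteins act upstream on RAS and RAF, and Etv4 and Etv5 carry the signal to target genes. In the intestinal crypt, EGF receptor signalling keeps stem and progenitor cells dividing.

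Promoter windows of 250 bases upstream of the annotated start (RefSeq, GRCm38.p6, 5′ to 3′ on the gene's strand) were found for 7 of the 10 genes, namely Dusp1, Dusp5, Dusp6, Spry1, Spry2, Spred1 and Etv5, which had a pair of windows. They were searched on both strands for the cAMP response element TGACGTCA, the AP-1 site TGANTCA, the ETS site CCGGAAG and the CArG box, the element bound by serum response factor. Shown are Dusp1 and Spry2, which fell together on the first day, then Dusp5, which was not called, and Spry1 and Etv5, which followed each other across libraries. Capitals mark matches.
Dusp1, chr17:26508473-26508722, minus strand: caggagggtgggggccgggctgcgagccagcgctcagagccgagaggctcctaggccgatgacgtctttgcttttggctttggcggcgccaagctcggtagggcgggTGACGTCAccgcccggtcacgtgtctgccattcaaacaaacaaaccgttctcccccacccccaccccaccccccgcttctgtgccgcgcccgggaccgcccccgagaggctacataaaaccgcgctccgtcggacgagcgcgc
Spry2, chr14:105896820-105897069, minus strand: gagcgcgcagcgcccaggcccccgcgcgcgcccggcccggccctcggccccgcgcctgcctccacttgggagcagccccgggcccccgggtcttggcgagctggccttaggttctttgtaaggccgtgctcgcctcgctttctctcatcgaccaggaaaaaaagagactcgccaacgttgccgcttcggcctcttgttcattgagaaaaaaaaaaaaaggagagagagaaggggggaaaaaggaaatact
Dusp5, chr19:53528895-53529144, plus strand: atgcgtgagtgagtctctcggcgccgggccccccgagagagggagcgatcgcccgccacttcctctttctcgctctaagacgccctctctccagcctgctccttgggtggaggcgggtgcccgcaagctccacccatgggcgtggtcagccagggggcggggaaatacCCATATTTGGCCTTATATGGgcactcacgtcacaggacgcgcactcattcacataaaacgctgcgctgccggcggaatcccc
Spry1, chr3:37639697-37639946, plus strand: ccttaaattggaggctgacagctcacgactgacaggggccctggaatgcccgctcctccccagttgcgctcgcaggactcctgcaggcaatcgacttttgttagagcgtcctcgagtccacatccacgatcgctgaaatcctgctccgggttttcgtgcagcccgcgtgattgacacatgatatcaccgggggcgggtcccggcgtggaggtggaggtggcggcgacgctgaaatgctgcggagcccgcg
Etv5, chr16:22439571-22439820, minus strand: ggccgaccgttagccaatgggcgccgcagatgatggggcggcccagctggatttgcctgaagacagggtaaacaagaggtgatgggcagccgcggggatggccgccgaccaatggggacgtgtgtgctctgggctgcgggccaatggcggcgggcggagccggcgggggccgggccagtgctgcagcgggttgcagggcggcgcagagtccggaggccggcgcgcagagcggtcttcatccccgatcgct
The Dusp1 window held a cAMP response element that begins 143 bases before the start, and 1.55% of 32851 windows of the same length held one. The Dusp5 window held 2 adjoining CArG boxes, beginning 82 and 72 bases before the start, where 1.47% of windows held at least 1. AP-1 and ETS sites, present in 6.75% and 6.91% of windows, were matched in none of the members' windows. A match is a string of letters and not a measured binding site.

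Levels are in RPKM, a read number scaled to gene length and library size, which is per length and so can be compared between genes. The low values imply 43010000 to 53930000 reads per library and at least 52 reads for each member in each library, except Spry4 with 14 to 119. The 8 epithelial markers were all present, with summed levels of 2246 to 7235 RPKM. Summed markers of mesenchyme (0.715 to 6.61 RPKM, 8 of 10 under 1 RPKM in all 18 libraries, Dcn and Lum at 0), of immune cells (0.366 to 1.85, Cd8a at 0) and of endothelium (0.0494 to 0.379) were low. Of the 18 libraries, 8 correlated best with the mean of the other libraries of their own day, among them all 6 of days 0 and 5, and 10 did so with the mean of another day. Day 2 replicate 2 was closest to day 3, day 3 replicate 1 to day 4, day 4 replicate 1 to day 5, and day 4 replicate 3 to day 2. Calls are adjusted p-values under 0.05 from limma, adjusted with the Benjamini-Hochberg method over the 11111 genes that reached 1 RPKM in 3 or more libraries. Changes are differences of log2(RPKM + 1) ± SE, which understate the fold of low genes.

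Of the 10 genes, 9 passed the filter on low values. Dusp1, Dusp4 and Spry2 were called lower on the first day of culture, and none of the 9 was called higher. These 3 of 9 stood against 18.6% of all genes called in either direction, 9.05% lower and 9.54% higher. The median change of the 9 was -0.09, against -0.0023 over all genes. For Dusp1, Dusp4 and Spry2 the day 1 call held in each of 30 other settings, with log2 changes from -2.35 to -1.49, -1.29 to -0.96 and -0.98 to -0.80. Array weights, 1 of the 30, called 10303 of 11111 genes over days, so a call there says little. Over all days, an F test called the same 3 of 9, against 25.3% of all genes.

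**Figure D1:**
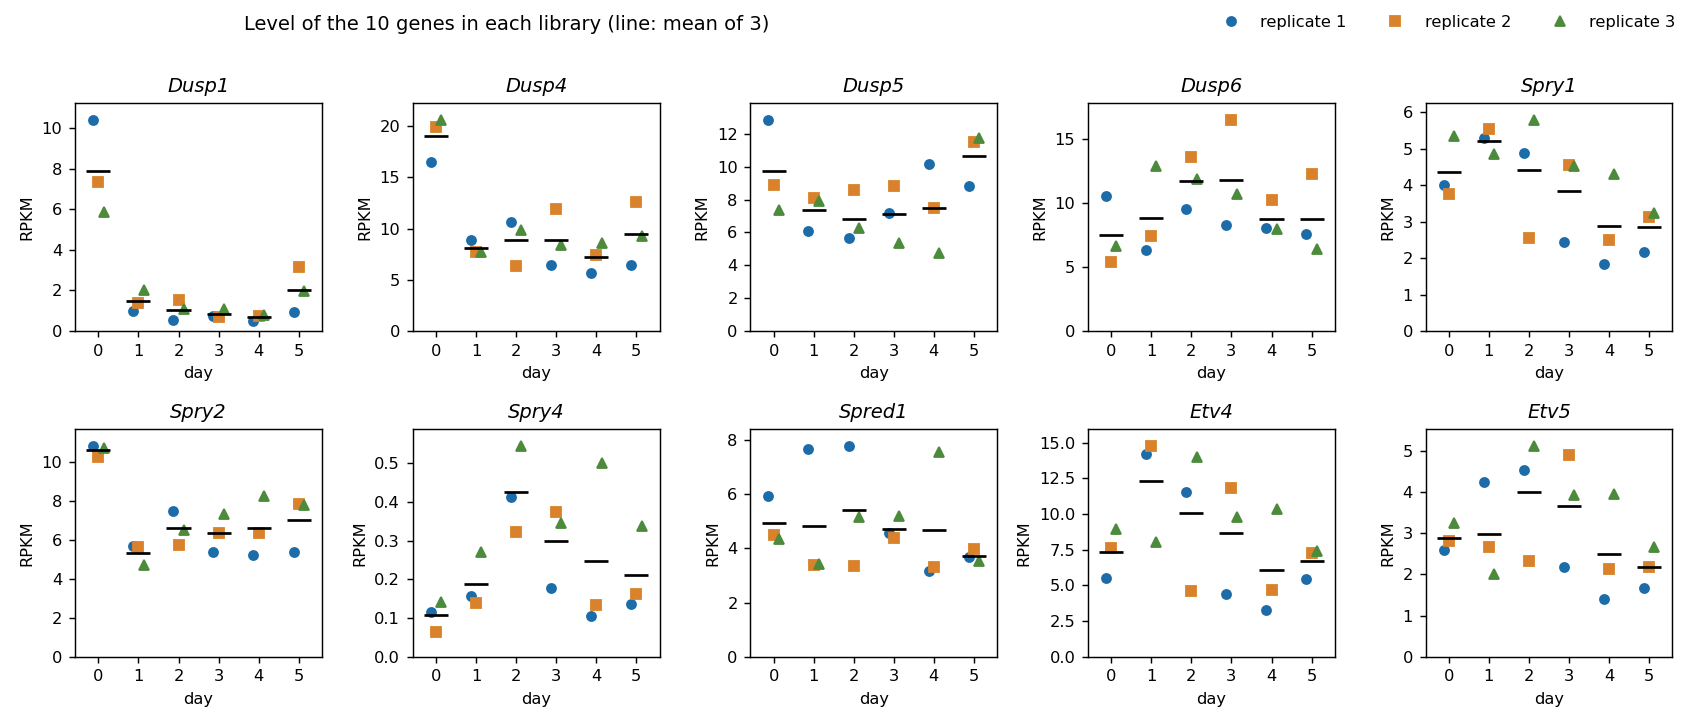
Level in RPKM (vertical axis, separate linear scale for each gene) of the 10 genes at days 0 to 5 (horizontal axis), with a symbol for each replicate and a line at the mean of 3. Dusp1, Dusp4 and Spry2 stand highest at day 0 in all 3 replicates, and Spry4 does not exceed 0.545 RPKM.

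Dusp1 encodes a nuclear phosphatase of MAP kinases, and its transcript is an immediate early response to growth factors and stress. It stood at 10.4, 7.34 and 5.85 RPKM in replicates 1, 2 and 3 of day 0, and at 0.993, 1.40 and 2.03 RPKM at day 1. Day 2 gave 0.531, 1.52 and 1.09 RPKM, day 3 gave 0.716, 0.669 and 1.07, and day 4 gave 0.517, 0.761 and 0.800. At day 5 it was 0.925, 3.16 and 1.98 RPKM. All 3 day 0 libraries thus lay above all 15 later ones, and the day 4 values were the lowest as a group. The mean fell 5.34-fold from 7.87 ± 2.33 RPKM (SD, n = 3) at day 0 to 1.47 ± 0.52 at day 1, a log2 change of -1.83 ± 0.27 (limma, adjusted p = 0.0004). At day 5 it was still below day 0, by -1.59 ± 0.27 (limma, adjusted p = 0.0015). From day 3 to day 5 the change was 0.67 ± 0.27, which did not pass (limma, adjusted p = 0.18), and the ranges overlapped because replicate 1 of day 5 was low. Differences between days made up 88.9% of the variance of Dusp1 over the 18 libraries, the largest share among the 10 genes. Means of 3 libraries differ somewhat by sampling alone, which adds to such shares. An exon of Dusp1 shares 11 bases with Ergic1 on the opposite strand, and whether strand was used in counting is not given in the sources used here.

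Dusp4 encodes another nuclear phosphatase, induced by ERK, that acts on ERK and JNK. At day 0 it stood at 16.5, 19.9 and 20.6 RPKM, the highest of the 10 genes, and at day 1 at 8.92, 7.72 and 7.73 RPKM. It then held 10.6, 6.32 and 9.83 RPKM at day 2, 6.44, 11.9 and 8.36 at day 3, 5.69, 7.38 and 8.61 at day 4, and 6.43, 12.6 and 9.25 at day 5. No later library reached the lowest of day 0, while days 1 to 5 overlapped each other. The mean fell 2.34-fold from day 0 to day 1, by -1.13 ± 0.24 (limma, adjusted p = 0.0052). Day 5 was lower than day 0 by -0.98 ± 0.24 (limma, adjusted p = 0.013). That last call was lost without day 5 replicate 1, the lowest of its day (-0.75, adjusted p = 0.072). The F test over days (adjusted p = 0.012) was lost without day 0 replicate 2 (0.061) or replicate 3 (0.067).

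Dusp5, a nuclear phosphatase specific to ERK, did not pass in any comparison. It stood at 12.9, 8.90 and 7.37 RPKM at day 0 and at 6.10, 8.10 and 7.93 at day 1. At day 5 it was 8.81, 11.5 and 11.7 RPKM, above all 3 libraries of day 1 but overlapping day 0 and day 3. The change from day 3 to day 5 was 0.54 ± 0.25 (limma, adjusted p = 0.23), and from day 1 to day 5 it was 0.48 ± 0.25 (adjusted p = 0.15). In days 2 to 4 it ranged from 4.78 to 10.2 RPKM, with both ends of that range at day 4. The gene shares 547 exon bases with an antisense transcript, AC137853.2, so its reads may be mixed.

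Dusp6 encodes the cytoplasmic phosphatase of ERK and is among the best known ERK feedback genes. It stood at 10.6, 5.37 and 6.64 RPKM at day 0 and 6.30, 7.42 and 12.9 at day 1, and the groups overlapped. Its highest day means were 11.7 ± 2.04 RPKM at day 2 and 11.8 ± 4.23 at day 3 (SD, n = 3), the latter with 16.5 RPKM in replicate 2 and 8.30 in replicate 1. At day 5 it was 7.55, 12.2 and 6.39 RPKM. No comparison passed, with changes of 0.20 ± 0.30 at day 1 and 0.19 ± 0.30 at day 5 against day 0 (limma, adjusted p = 0.69 and 0.64). The sign at day 1 turned to -0.08 without day 1 replicate 3, and at day 5 to -0.06 without day 5 replicate 2. Days accounted for 32.1% of its variance, a share that sampling alone raises, and the F test over days did not pass (adjusted p = 0.41).

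**Figure D2:**
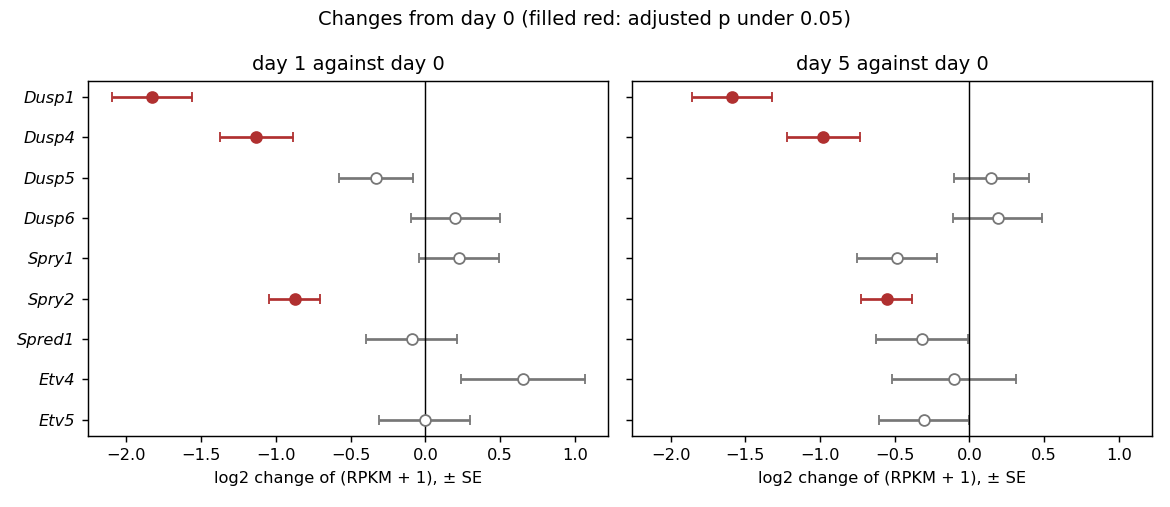
Change of log2(RPKM + 1) from day 0 to day 1 (left) and to day 5 (right) for the 9 tested genes, with bars of ± SE from limma and called genes in filled red. Dusp1, Dusp4 and Spry2 are called lower at both days, and the other 6 genes are not called.

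Spry2 encodes an inhibitor of receptor tyrosine kinase signalling upstream of ERK. It stood at 10.8, 10.3 and 10.7 RPKM at day 0, which is 10.6 ± 0.30 (SD, n = 3), and at 5.70, 5.65 and 4.69 RPKM at day 1. Later values were 7.51, 5.76 and 6.53 RPKM at day 2, 5.39, 6.34 and 7.35 at day 3, 5.22, 6.33 and 8.28 at day 4, and 5.38, 7.83 and 7.78 at day 5. All 15 later libraries lay below all 3 of day 0, and within day 0 the replicates were close. The mean fell 1.98-fold on the first day, by -0.87 ± 0.17 (limma, adjusted p = 0.0029). From day 1 to day 5 the change was 0.32 ± 0.17, which did not pass (adjusted p = 0.16) but passed after rescaling by median of ratios or by quantiles. At day 5 Spry2 was still lower than at day 0 by -0.55 ± 0.17 (limma, adjusted p = 0.030). This later call was lost without day 0 replicate 1, 2 or 3 (adjusted p = 0.066, 0.069 and 0.077), without day 5 replicate 1 (0.15) and among the DNase-treated libraries alone (0.12). The F test (adjusted p = 0.021) was lost without day 0 replicate 1, 2 or 3 (0.067, 0.069 and 0.080).

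Beside these 3 decreases, summed markers of several cell types differed between days 0 and 1 without overlap. Paneth cell markers were at 540 to 757 RPKM at day 0 and 147 to 182 at day 1, enterocyte markers at 1654 to 2285 and 2946 to 6960, and markers of fetal or regenerating epithelium at 2.92 to 37.3 and 554 to 1509. Stem cell markers overlapped, at 244 to 481 and 121 to 273 RPKM, and single markers went opposite ways. Olfm4 was at 125, 106 and 140 RPKM at day 0 and at 9.16, 5.33 and 0.783 at day 1, but Ascl2 was at 0.294, 4.40 and 3.71 and then at 8.88, 11.3 and 8.91. Goblet cell markers (215 to 589 and 307 to 376 RPKM) and enteroendocrine markers (108 to 322 and 142 to 218) overlapped. Their part in the fall of Dusp1, Dusp4 and Spry2 was not tested. In bulk libraries, fewer cells of a type and less RNA per cell cannot be told apart.

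Spry1, another inhibitor of receptor tyrosine kinase signalling, had a lower mean than Spry2 at every day and was not called on the first day. It stood at 4.00, 3.75 and 5.36 RPKM at day 0 and at 5.28, 5.55 and 4.85 at day 1, where its day mean was highest. Day 2 gave 4.88, 2.55 and 5.79 RPKM, day 3 gave 2.45, 4.56 and 4.52, day 4 gave 1.84, 2.50 and 4.30, and day 5 gave 2.16, 3.12 and 3.24. All libraries of day 5 lay below those of day 1 and of day 0. The change from day 1 to day 5 was -0.71 ± 0.27, a mean ratio of 1.84-fold lower, and it did not pass (limma, adjusted p = 0.058). It passed with the replicate number as a block (adjusted p = 0.033) and with the mouse as a block (0.019). It also passed when replicate 2 of day 2 (0.035), replicate 1 of day 3 (0.044), or replicate 1 (0.045) or 3 (0.034) of day 4 was left out, libraries that bear only on the shared spread. In all it passed in 10 of 30 other settings, array weights among them. Without day 5 replicate 1 the change was -0.57 (adjusted p = 0.18). The gene shares 710 exon bases with the predicted gene Gm42922 on the opposite strand.

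Spry4, another Sprouty gene, was scarce and did not pass the filter, since 0 of 18 libraries reached 1 RPKM. It was tested only in the setting without a filter, where it was not called. The limma adjusted p was 0.19 in the F test over days. It was 0.62 at day 1 and 0.43 at day 5 against day 0. It stood at 0.116, 0.0632 and 0.142 RPKM at day 0, 0.158, 0.138 and 0.270 at day 1, and 0.412, 0.321 and 0.545 at day 2. Days 3, 4 and 5 gave 0.177, 0.373 and 0.346 RPKM, then 0.105, 0.135 and 0.501, then 0.137, 0.162 and 0.337. The implied reads were 14 in day 0 replicate 2 (95% Poisson interval 7.65 to 23.5) and 119 in day 2 replicate 3 (98.6 to 142), intervals that cover counting error only. All 3 libraries of day 2 thus lay above all 3 of days 0 and 1, whereas days 3 to 5 overlapped each other and day 1. The contrast of day 2 was seen in the values and was not tested by itself.

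Spred1 encodes a Sprouty-related protein that brings neurofibromin to the membrane, where it switches RAS off. Its day means stayed between 3.73 ± 0.23 RPKM at day 5 and 5.43 ± 2.25 at day 2 (SD, n = 3). Days accounted for 12.1% of its variance, the smallest share of the 10, and the F test did not pass (adjusted p = 0.88). Single libraries stood out, with 7.67 RPKM in replicate 1 of day 1 against 3.40 and 3.42 in the others, and 7.56 in replicate 3 of day 4 against 3.15 and 3.32. The day 1 change was -0.09 ± 0.31 and the day 5 change -0.32 ± 0.31 against day 0 (limma, adjusted p = 0.87 and 0.44). The day 1 change had the opposite sign without day 0 replicate 1, or replicates 2 or 3 of day 1 left out singly (0.02 to 0.07) and after quantile scaling (0.01).

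Etv4 and Etv5 encode ETS factors of the PEA3 family, which are induced by FGF and ERK signalling. Etv4 stood at 5.52, 7.64 and 8.94 RPKM at day 0 and at 14.2, 14.8 and 8.07 at day 1. It was the highest of the 10 at day 1 with 12.3 ± 3.71 RPKM (SD, n = 3), although replicate 3 fell within the range of day 0. Day 2 gave 11.6, 4.59 and 14.0 RPKM, day 3 gave 4.41, 11.8 and 9.78, day 4 gave 3.31, 4.65 and 10.4, and day 5 gave 5.45, 7.28 and 7.41. All libraries of day 5 lay below those of day 1. The day 1 change of 0.65 ± 0.41 (limma, adjusted p = 0.30) and the change from day 1 to day 5 of -0.76 ± 0.41 (adjusted p = 0.17) did not pass. The latter passed when only the days compared were fitted. Against day 0, day 5 differed by -0.11 ± 0.41, a sign that turned after rescaling by median of ratios (0.07) or by quantiles (0.05) and without day 0 replicate 3 (0.03) or day 5 replicate 1 (0.02).

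Etv5 was lower, at 2.59, 2.81 and 3.24 RPKM at day 0 and 4.24, 2.66 and 2.00 at day 1. It reached its highest day mean at day 2, with 4.53, 2.31 and 5.12 RPKM. Day 3 gave 2.18, 4.88 and 3.93 RPKM, and day 4 gave 1.39, 2.12 and 3.95. Day 5 gave 1.66, 2.18 and 2.65 RPKM. Days 0 and 1 overlapped, with a difference of -0.0046 ± 0.30 (limma, adjusted p = 0.99) whose sign turned among settings (-0.23 to 0.18 as single libraries were left out). From day 3 to day 5 it differed by -0.52 ± 0.30, which did not pass (adjusted p = 0.31).

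The later intervals gave no call among the 9 genes. From day 1 to day 3, after CHIR99021 was left out, 0 of 9 passed with limma and 0 had an unadjusted p under 0.05, against 0.036% of all genes called. From day 3 to day 5, after Wnt3a-conditioned medium and Y-27632 were left out, 0 of 9 passed and 2 (Dusp1 and Dusp5, both higher) had an unadjusted p under 0.05, against 1.93% called (1.58% higher and 0.342% lower). From day 1 to day 5, 0 of 9 passed and 1 (Spry1) had an unadjusted p under 0.05, while 27.8% of all genes were called (16.1% lower and 11.8% higher). From day 0 to day 5, 3 of 9 were called, all lower, against 24.4% of all genes called (13% lower and 11.4% higher). The median change of the 9 was then -0.32, against -0.17 over all genes. These comparisons share libraries, so they are not independent of each other.

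The order of levels within the group changed with the day. At day 0 Dusp4 led, without overlap with Spry2 in second place, and from Spry2 through Dusp5, Dusp1, Dusp6, Etv4 and Spred1 to Spry1 each gene overlapped the next. At day 1 Etv4, Dusp6, Dusp4 and Dusp5 formed an overlapping top, and Dusp1 had moved to ninth place. At days 2, 3 and 4 Dusp6 had the highest mean, and at day 5 Dusp5 did (10.7 ± 1.62 RPKM, SD, n = 3), but both overlapped the gene in second place. Spry4 was last at every day.

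Much of the variation of Etv4, Etv5 and Spry1 lay between libraries of the same day. Day 2 replicate 2 held the lowest value of its day for all 5 of Etv4, Etv5, Spry1, Spry4 and Spred1, and so did day 4 replicate 1, whereas day 4 replicate 3 held the highest for all 5. Day 3 replicate 1 and day 5 replicate 1 were lowest for 4 of these 5 genes. In deviations of log2(RPKM + 1) from the day mean, Etv4 correlated with Etv5 at r = 0.94 and with Spry1 at r = 0.94, and Spry1 with Etv5 at 0.90 (n = 18 libraries, which share lines and processing). Over the 18 libraries without removing day means, Etv4 and Spry1 gave r = 0.91 and rho = 0.91, and r = 0.89 without the 2 libraries farthest from the median of Spry1. Dusp4 and Spry2 deviated with these genes too (r with Etv4 0.79 and 0.76). Dusp5 deviated the other way (r with Etv4 -0.57) and Dusp6 little (r with Etv4 -0.14). These are the strongest and some contrasting values among 45 pairs and are given as descriptions.

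**Figure D3:**
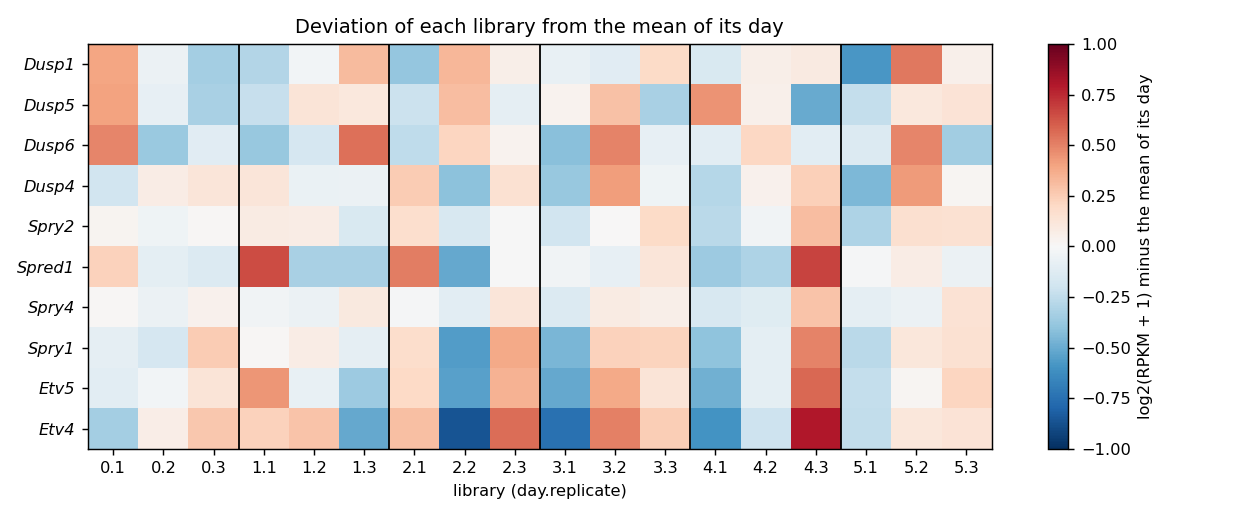
Deviation of log2(RPKM + 1) from the mean of its day (colour, red above and blue below) for the 10 genes (rows) in the 18 libraries (columns, day and replicate, with lines between days). In day 2 replicate 2, day 3 replicate 1 and day 4 replicate 1 the lower rows are blue, and in day 4 replicate 3 they are red, while Dusp5 is blue there.

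**Figure D4:**
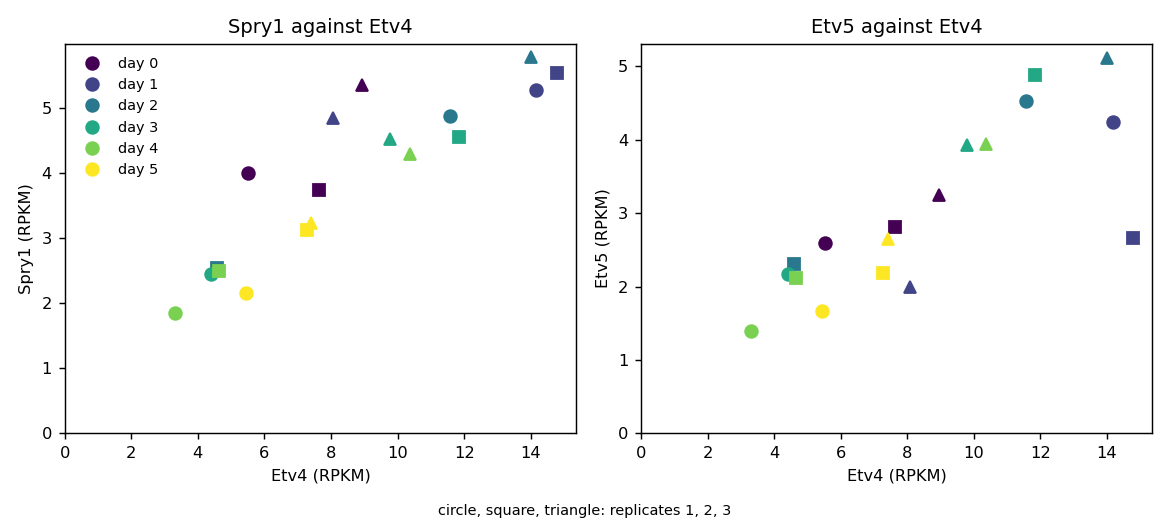
Spry1 (left) and Etv5 (right) against Etv4, all in RPKM on linear axes, 1 symbol for each of the 18 libraries (colour for the day, shape for the replicate). Both rise along Etv4 (r = 0.91 and 0.82 on log2(RPKM + 1)), and libraries of days 2, 3 and 4 lie at both ends.

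Cell type markers differed between the same libraries. Summed enterocyte markers reached 12234 RPKM in day 2 replicate 2 against 3546 and 2829 in its day, 12499 in day 3 replicate 1 against 2849 and 6053, and 31514 in day 4 replicate 1 against 15566 and 4658, the last in replicate 3. The libraries low in Etv4, Etv5 and Spry1 were thus those high in enterocyte markers at these days, and day 4 replicate 3 was the reverse. At day 5 the sums were closer, 21410 to 25647 RPKM. Stem cell sums were at 72.6 RPKM in day 2 replicate 2 against 288 and 305. At day 4 they were at 344, 299 and 483 RPKM in replicates 1, 2 and 3. For day 2 replicate 2 and day 4 replicate 3 these sums were thus low and high, as Etv4, Etv5 and Spry1 were. The sums in replicate 1 of days 4 and 5 did not follow, and Olfm4 was the largest part of both. Replicate 1 of day 4, lowest in these genes, was above replicate 2 in its stem cell sum. There Olfm4 was at 246, 178 and 235 RPKM in replicates 1, 2 and 3. Every other marker of the list rose from replicate 1 to 2 to 3 at day 4, as Etv4 did (Lgr5 1.16, 2.10 and 3.40 RPKM). At day 5 the stem cell sums were 751, 573 and 527 RPKM, highest in replicate 1, which was lowest in Etv4, Etv5 and Spry1. Olfm4 was at 577, 407 and 355 RPKM there, and the other stem cell markers split. Lgr5 and Axin2 were lowest in replicate 1, while Ascl2, Smoc2 and Slc12a2 were highest in it. At day 3 the stem cell sums were closer, at 183, 202 and 242 RPKM in replicates 1, 2 and 3. Replicate 1 was lowest there, as it was in Etv4, Etv5 and Spry1. Secretory markers did not follow the enterocyte markers at day 2, where replicate 2 was lowest for Paneth cells (57.4 against 151 and 160 RPKM) and goblet cells (371 against 602 and 686). The Paneth sums were 664, 155 and 636 RPKM in replicates 1, 2 and 3 of day 3 and 1266, 1176 and 1254 at day 4, and the goblet sums 967, 415 and 1175, then 1297, 2124 and 1076. Sums of fetal or regenerating markers were 269, 1945 and 837 RPKM in replicates 1, 2 and 3 of day 3, and 61.8, 272 and 460 at day 4. At both days they had the order of Etv4. They did not have it at day 2 (494, 1307 and 1407 RPKM) or at day 5 (108, 688 and 162). The part of these markers in the within-day pattern was not tested.

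By the rule of highest Pearson correlation of log2(RPKM + 1) over the 18 libraries, Dusp1 was most like Atf3 (r = 0.95), an immediate early and stress transcription factor, and Map3k1 (0.94). Dusp4 was most like Zfp110 (0.95) and Galc (0.94), and Spry2 most like Arid4a (0.95) and Plch2 (0.94). Spry1 followed Timeless (0.97), a replication fork protein, and Zak (0.96), a stress-activated kinase. Etv4 followed Cdc42ep1 (0.97) and Wdr73 (0.96), and Etv5 followed Poc1b (0.94) and Ergic1 (0.93). Spred1 followed Pum2 (0.93) and Dmd (0.93). Dusp5 and Dusp6 had looser neighbours, Plin2 (0.88) for Dusp5, and Vnn1 (0.85) and Mmp28 (0.81) for Dusp6. None of these neighbours was another member, since members were left out of the search.

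Other genes of the pathway were taken from lists of 82 genes, of which 69 passed the filter. Their counts on the first day stand against 18.6% of all genes called, 9.54% higher and 9.05% lower, and the share of the RAS-ERK cascade and of the other inhibitors was near that. On the first day, 1 of 7 receptors was called: Fgfr3, an FGF receptor, fell from 7.82 ± 0.63 to 1.29 ± 0.18 RPKM (SD, n = 3; log2 change -1.94 ± 0.22, limma adjusted p = 7.0e-05). Among EGF-family ligands 1 of 5 was called, Ereg (1.14 ± 0.38, limma adjusted p = 0.048). Ereg was scarce, at 0.134 ± 0.21 RPKM at day 0, 1.75 ± 1.59 at day 1 and 0.135 ± 0.12 at day 5 (SD, n = 3). It passed the filter only through the days between day 0 and day 5. Its call was lost without any 1 of 13 libraries (adjusted p up to 0.23, without day 1 replicate 3). It was also lost without a filter (0.075) and among DNase-treated libraries alone (0.097). In the RAS-ERK cascade 4 of 21 were called, with Hras, a RAS protein (15.5 to 31.0 RPKM), the MEK gene Map2k2 (59.1 to 102 RPKM) and the phosphatase gene Ptpn11 higher, and the adaptor gene Gab1 lower. Ptpn11 lost its call without day 0 replicate 1 (0.064), day 1 replicate 1 (0.073) or day 1 replicate 2 (0.051), and among DNase-treated libraries alone (0.11), where Gab1 lost its call too (0.062). The list medians were -0.33 for receptors, 1.02 for ligands, -0.02 for the cascade and -0.48 for the other inhibitors, against -0.0023 over all genes. Of the 11 other inhibitors, 6 had an unadjusted limma p under 0.05, against 3600 of 11111 genes.

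Among other MAP kinase phosphatases 2 of 5 were called on the first day in opposite directions, Dusp9 higher (1.12 ± 0.50 to 4.56 ± 0.91 RPKM, SD, n = 3) and Dusp16 lower (9.30 to 5.32 RPKM, -0.70 ± 0.16). Spred2, the other Spred gene that passed the filter, was not called in any comparison (limma, unadjusted p under 0.05 in 0 of them). Of 11 other inhibitors 2 were called lower. They were Lrig3 (9.27 ± 0.21 to 4.27 ± 0.765 RPKM), whose relative Lrig1 restrains EGF receptors, and Cic, which encodes a repressor of Etv4 and Etv5. Cic lost its call without day 0 replicate 1, 2 or 3 (adjusted p = 0.054, 0.076 and 0.086) and without day 1 replicate 1 (0.060) or replicate 3 (0.13). None of the 8 other ETS factors was called by limma on the first day (1 with an unadjusted p under 0.05). Elk1 alone was called in any comparison (lower at day 5 than day 0, limma adjusted p = 0.025). Its call was lost without day 0 replicate 2 or 3 or day 5 replicate 1 or 3 (0.061 to 0.11), and among DNase-treated libraries alone (0.071).

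Other ERK-responsive transcripts split on the first day, with 4 of 11 called higher and 3 lower and a list median of 0.85. Egr1 fell from 96.8 ± 1.66 to 15.4 ± 5.78 RPKM (-2.64 ± 0.37) and Fos by -2.52 ± 0.53, both immediate early transcription factors. Plaur (3.43 ± 0.91), the urokinase receptor, and the cyclin gene Ccnd1 (2.42 ± 0.65) rose. Plaur lost its call without day 0 replicate 2 or 3 or day 1 replicate 2 or 3 (adjusted p = 0.053 to 0.084), and Ccnd1 without day 0 replicate 1 or 2 or day 1 replicate 3 (0.057 to 0.075) and among DNase-treated libraries alone (0.063). From day 0 to day 5, 3 of 11 were called, near the 24.4% of all genes called (13% lower and 11.4% higher). They were Fos, Egr1 and Ier2, all lower (-4.80 ± 0.53, -4.45 ± 0.37 and -1.61 ± 0.18).

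From day 1 to day 5, 4 of the 5 tested EGF-family ligands (of 8 listed) were called lower, and 2 of the 4 lost the call when single libraries were left out. The list median was -1.96 against -0.15 over all genes, of which 27.8% were called, 11.8% higher and 16.1% lower. Tgfa was not called (-0.26 ± 0.16, limma adjusted p = 0.23). Btc went from 17.8 ± 1.23 to 3.61 ± 1.18 RPKM and Hbegf from 9.42 ± 1.90 to 1.72 ± 0.765 (SD, n = 3). Areg (-2.76 ± 0.79) lost its call without day 1 replicate 2 or 3 or day 5 replicate 1 or 3 (adjusted p = 0.050 to 0.079). Ereg (-1.13 ± 0.38), at 0.135 RPKM at day 5, passed the filter only through earlier days when it was higher. It lost its call without any of 5 libraries of these days, all but day 1 replicate 2 (up to 0.15). The Ereg call was also lost without a filter (0.069) and among DNase-treated libraries alone (0.13). Of 7 receptors 3 were called higher, Erbb2, Erbb3 (16.9 ± 3.73 to 48.2 ± 11.8 RPKM) and Fgfr3, and 2 lower, of which Fgfr4 changed by -1.48 ± 0.36. In the cascade 3 of 21 were called higher and 4 lower, near the shares of all genes. Hras (-0.74 ± 0.17) was lower in every setting run. Ksr1 (1.13 ± 0.31) lost its call without day 1 replicate 1 or day 5 replicate 3 (limma, adjusted p = 0.067 and 0.066). Ptpn11 (-0.66 ± 0.16) lost it among DNase-treated libraries alone (0.060). Nras (-0.64 ± 0.18) lost it there too (0.077), and without day 1 replicate 1 or 2 or day 5 replicate 2 or 3 (0.053 to 0.075). Of 11 other ERK-responsive transcripts 6 were called, all lower. Fosl1 (-2.35 ± 0.55) and Fos (-2.29 ± 0.53) kept the call in every setting run, while Plaur and Epha2 did not. Plaur (-2.81 ± 0.91) lost it without any library of these days but day 5 replicate 2 (limma, adjusted p = 0.063 to 0.12). The Plaur call was also lost with a pseudocount of 0.1 (0.053) and without a filter (0.067). Epha2 (-2.54 ± 0.72) lost it without day 1 replicate 2 or day 5 replicate 1 or 3 (0.055 to 0.086). Over the same interval none of the 9 tested feedback genes was called by limma, as given above. Dusp9 fell by 1.51 on the log2 scale, back to 0.951 ± 0.30 RPKM. Of the other inhibitors, Lrig3 rose by 1.22 ± 0.17 and Rasa2 was called lower (-0.48 ± 0.15, limma adjusted p = 0.029). Rasa2 lost the call without any 1 of the 6 libraries of these days (0.055 to 0.085). It was also lost after rescaling by median of ratios (0.0665) or by quantiles (0.059) and among DNase-treated libraries alone (0.092).

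**Figure D5:**
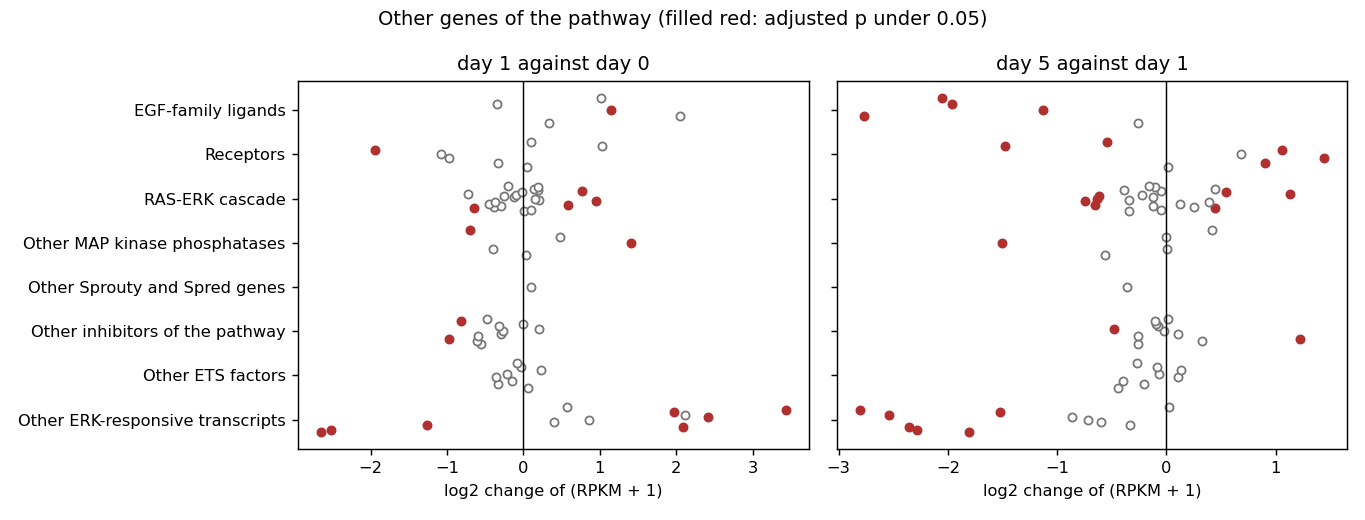
Change of log2(RPKM + 1) from day 0 to day 1 (left) and from day 1 to day 5 (right) for the tested genes of 8 lists, 1 point a gene, called genes in filled red. The ligands and the other ERK-responsive transcripts have called genes only on the lower side at right, and called genes on both sides or the higher side at left.

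From day 1 to day 3 and from day 3 to day 5 a single other pathway gene was called each time. Lrig3 was higher at day 3 than at day 1 (1.17 ± 0.17, limma adjusted p = 0.016), a call lost without day 1 replicate 2 or 3 or day 3 replicate 1 or 3 (0.098 to 0.16), among DNase-treated libraries alone (0.34) and when only the days compared were fitted (0.49). Fgfr3 was higher at day 5 than at day 3 (1.06 ± 0.22, adjusted p = 0.023), lost without day 3 replicate 2 or day 5 replicate 2 or 3 (0.11 to 0.12) and when only the days compared were fitted (0.11). From day 0 to day 5, when 24.4% of all genes were called, 5 of 21 cascade genes were called, 3 higher and 2 lower. The higher ones were Map2k2 (0.71 ± 0.17), Mapk3 (0.59 ± 0.19) and Map2k1 (0.53 ± 0.16), and all 3 lost the call after quantile scaling (adjusted p = 0.075, 0.27 and 0.076). Mapk3 also lost it without any 1 of the 6 libraries of these days (0.057 to 0.098), and Map2k1 without any of them but day 0 replicate 3 (0.052 to 0.10), both also among DNase-treated libraries alone (0.091 and 0.17). Erbb2 was called higher (0.57 ± 0.18, adjusted p = 0.033), a call lost without day 0 replicate 2 or 3 or day 5 replicate 2 or 3 (0.099 to 0.14), after quantile scaling (0.071) and when only the days compared were fitted (0.067). Fgfr3 was called lower (-0.89 ± 0.22, adjusted p = 0.013), a call lost without day 5 replicate 1 (0.072) and among DNase-treated libraries alone (0.14). Braf (3.37 ± 0.81 to 1.37 ± 0.275 RPKM, SD, n = 3) and Hbegf (-2.31 ± 0.43) were called lower in every setting run. Of 11 other inhibitors 3 were called lower, Cic, Cbl and Errfi1. Cic lost the call without day 0 replicate 3 (0.050) or day 5 replicate 1 (0.083), and Cbl without any library of these days but day 5 replicate 3 (0.050 to 0.12), both also among DNase-treated libraries alone (0.11 and 0.19). Errfi1, a feedback inhibitor of EGF receptors, was called lower (-0.81 ± 0.19, adjusted p = 0.011), except without day 5 replicate 1 (0.057) and among DNase-treated libraries alone (0.075).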

How the data were processed

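RNA came from organoids of 18 libraries, extracted with a kit for single cells and prepared with an Illumina mRNA kit, per the labels. The authors deposited RPKM. Per the submitters' processing notes, bcl2fastq 2.17, STAR 2.5.2b and edgeR 3.20.5 were used with build mm10; annotation and strand use: not given in the sources used here. No count test was run. Depth was taken from steps of low values; a member's reads are the smallest whole numbers (within 0.05 of a read) that fit its 18 values.

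limma 3.58.1 (R 4.3.3) was fitted to log2(RPKM + 1), pseudocount 1, with a coefficient for each day, all 18 libraries and a trend, on genes that reached 1 RPKM in 3 or more libraries. Tests are two-sided. Recovery of known changes was tested on simulated data. Alternatives were pseudocounts of 0.1 and 0.5, no filter or 5 RPKM, rescaling, fitting only the days compared, array weights, replicate blocks, DNase-treated libraries alone, and leaving out libraries.

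Same-numbered libraries come from the same mouse by the titles, except at days 1 and 2. Their deviations from day means correlated at a median of 0.17 (45 pairs, from -0.64 to 0.81), against -0.08 between different numbers. The members and lists were chosen with earlier results of these data known. All 10 members are named; from each other list up to 4 called genes with the largest change, and for each tested member the 2 genes most correlated with it, of which 1 is not reported here.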

Additional observations from a re-analysis of the deposited data

How the results depend on the processing

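Dusp1, Dusp4 and Spry2 were called lower at day 1 than at day 0 in all 30 other settings, and Dusp1 at day 5 too. Under median-of-ratios rescaling the median of all genes moved from -0.17 to -0.0040 in day 5 against day 0 and from -0.15 to -0.02 in day 5 against day 1, where in the latter 1 member was then called (Spry2); quantile scaling called 2 (Spry1 and Spry2), fitting only the days compared 2 (Spry1 and Etv4), the block on the replicate number or on the mouse 1 each (Spry1), and leaving out replicate 1 of day 0, replicate 2 of day 3 and replicate 3 of day 4 at once, chosen after seeing the data as libraries apart from their day, 1 (Spry1). The replicate block changed no other call of a member. Array weights, whose estimation did not converge and which called 10303 of 11111 genes over days, called 9 members over days, 5 in day 5 against day 3, 6 in day 5 against day 1 and 6 in day 5 against day 0.

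Leaving out 1 library at a time gave 1 to 3 members over days (1 without day 0 replicate 2 or 3), 0 to 1 in day 5 against day 1 and 1 to 3 in day 5 against day 0 (1 without day 5 replicate 1). It took changes that did not pass across 0: against day 0, at day 1, Dusp6 ranged from -0.0753 to 0.4435, Spred1 from -0.4166 to 0.0723 and Etv5 from -0.2255 to 0.1775; at day 5, Dusp5 ranged from -0.0147 to 0.3491, Dusp6 from -0.0554 to 0.4339 and Etv4 from -0.2743 to 0.0298. The sign also turned at day 1 for Spred1 (quantile scaling 0.0116, without the 3 libraries 0.0249) and Etv5 (median of ratios 0.0218, quantile 0.1398, mouse block 0.0892), and at day 5 for Etv4 (median of ratios 0.0653, quantile 0.0527). The cause was not tested. Depth limits Spry4, which was tested only without a filter and was not called there.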
